A study of Rattus norvegicus with 36 samples.

Results

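Messenger RNA of 5 genes of striatal dopamine and adenosine signalling was followed in the nucleus accumbens of 9 rats. The genes were the dopamine receptors Drd1 (ENSRNOG00000023688), Drd2 (ENSRNOG00000008428) and Drd3 (ENSRNOG00000060806), the adenosine receptor Adora2a (ENSRNOG00000001302), and Ppp1r1b (ENSRNOG00000028404), which encodes the phosphoprotein DARPP-32. They were picked by Ensembl ID among 31546 gene IDs, and their names come from that choice, since the count files pair no ID with a name. All 5 were among the 16029 genes that passed the filter on low counts and were tested.

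The nucleus accumbens is a ventral striatal region of the reward circuit, and most of its neurons are GABAergic projection neurons that receive dopamine from the midbrain. D1 receptors couple to stimulatory G proteins and raise cyclic AMP, while D2 and D3 receptors couple to inhibitory ones and lower it. In the classical scheme, Drd1 marks the direct pathway neurons, and Drd2 marks the indirect pathway neurons, which also carry the A2a receptor, a stimulatory receptor that opposes D2. The split is less strict in the accumbens than in the dorsal striatum. In the rat, the D3 receptor is concentrated in the accumbens shell and the islands of Calleja. DARPP-32 is made by projection neurons of both pathways, and once phosphorylated by protein kinase A it inhibits protein phosphatase 1. Cocaine blocks the dopamine transporter and so raises dopamine at the D1, D2 and D3 receptors.

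The rats were Sprague-Dawley animals aged 8 weeks, trained in conditioned place preference, which pairs a drug with 1 compartment and then records where the animal stays. The 3 Vulnerable and the 3 Non Vulnerable rats carry the label of 4 cocaine injections, at 20 mg/kg intraperitoneally per the protocol, in sessions of 20 min set 6 h apart from the saline sessions. The 3 Saline rats carry the label of 4 injections of physiological serum. The series compares rats that did or did not express the preference, but no sample label ties Vulnerable or Non Vulnerable to either. Saline rats went through the same alternation of compartments, and place preference was tested 1 day after conditioning ended. The tissue label is nucleus accumbens, while the extraction text also names the caudate putamen, so how much dorsal striatum a sample holds is not known here.

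Each rat had 4 technical replicate libraries, which were summed, giving 41213813 to 64081679 counts per rat. Among the 4 libraries of a rat the spread was close to sampling noise, with a chi-square per degree of freedom of 1.004 to 1.02 over all genes with at least 40 counts. Non Vulnerable rat 1 stood apart in composition, with 18.2% of its counts in its 10 most counted genes against 10.5% to 13.3% in the other 8 rats, and had the lowest scaling factor, 0.901 against 0.962 to 1.08. Cell type and region markers could not be checked, because their symbols could not be matched to gene IDs. In bulk tissue, fewer cells of a type and less RNA per cell cannot be told apart, which holds for every level below. Levels are given as CPM, counts scaled to a common library size with TMM factors, not corrected for transcript length, so they are compared between rats and not between genes.

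All 5 genes had their lowest mean in Non Vulnerable rats and their highest in Vulnerable rats, for Drd3 by a margin over Saline rats far inside the spread. The difference between Vulnerable and Non Vulnerable rats was called for Drd2 and Drd3. A gene was called when its edgeR p, after Benjamini-Hochberg adjustment across the genes tested, was under 0.05. Drd3 was 2.55 times as high in Vulnerable as in Non Vulnerable rats, and it was the only one of the 5 that was also called lower in Non Vulnerable than in Saline rats. No gene of the set was called between Vulnerable and Saline rats. Against Non Vulnerable rats, 2 of the 5 genes were called, both higher in Vulnerable rats, where 31.5% of all genes were called and 15.1% were called higher. With 5 genes a count of 2 is close to that background.

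**Figure D1:**
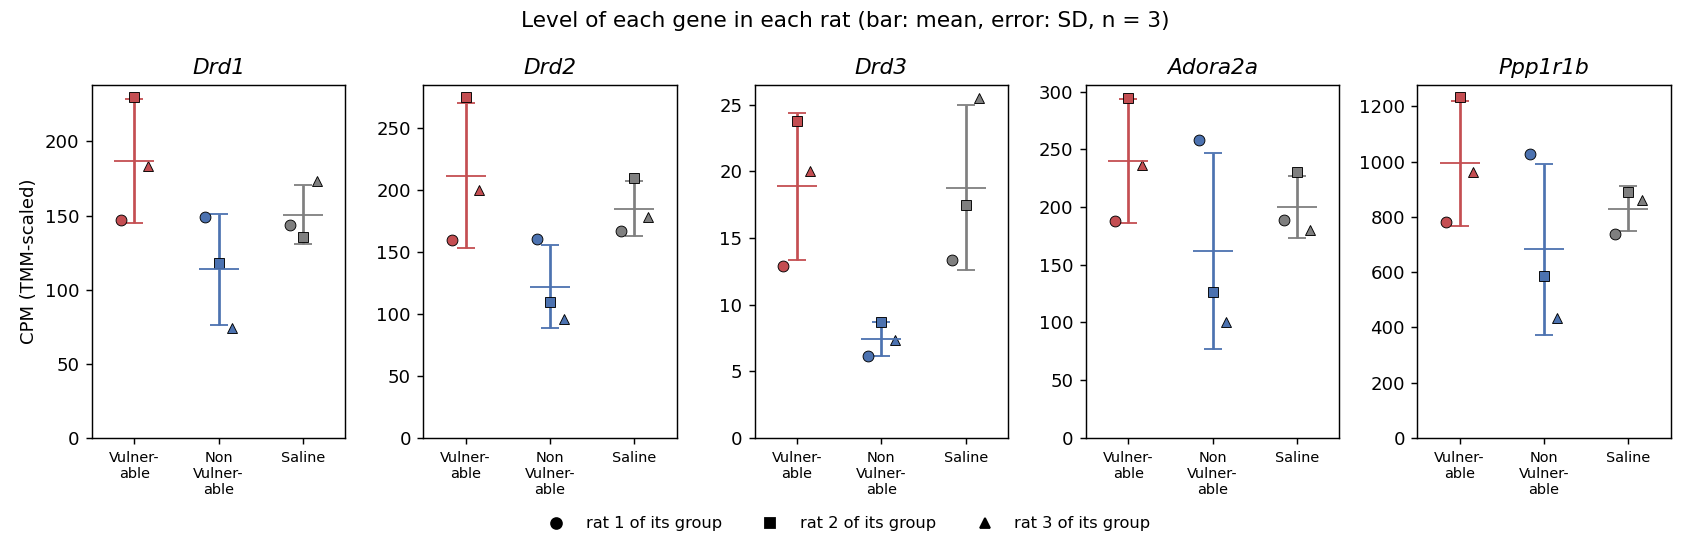
TMM-scaled CPM (vertical axes, from 0, 1 scale per gene) of the 5 genes in Vulnerable, Non Vulnerable and Saline rats; points are rats, bars are means and error bars SD (n = 3). Drd3 lies between 6.15 and 8.69 CPM in the 3 Non Vulnerable rats, below all other rats, while for Adora2a and Ppp1r1b Non Vulnerable rat 1 lies far above Non Vulnerable rats 2 and 3.

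Drd1, the D1 receptor of the direct pathway, stood at 147, 230.3 and 183 CPM in Vulnerable rats 1 to 3, at 149, 118 and 74.2 CPM in Non Vulnerable rats, and at 143, 136 and 173 CPM in Saline rats. Vulnerable rat 2 was the highest and Non Vulnerable rat 3 the lowest, and all 3 groups overlapped. The means were 187 ± 41.8 CPM in Vulnerable, 114 ± 37.7 CPM in Non Vulnerable and 151 ± 19.8 CPM in Saline rats (SD, n = 3 each). Between Vulnerable and Non Vulnerable rats the log2 fold change was 0.72 with a standard error (SE) of 0.25, a 1.64-fold difference with a 95% interval of 1.11 to 2.43 and an edgeR adjusted p of 0.0556. This lay just outside the call. It crossed the threshold in 4 of 18 fits, the main one included among the 18. These were without Vulnerable rat 1 (adjusted p = 0.046), without Non Vulnerable rat 1 (0.0172), with library totals in place of TMM scaling (0.0257) and in DESeq2 (0.0152). The highest edgeR adjusted p was 0.169, without Vulnerable rat 2 (log2 0.54). The lowest log2 fold change was 0.48, without Non Vulnerable rat 3 (adjusted p = 0.121).

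Drd2, the D2 receptor of the indirect pathway and also the autoreceptor of dopamine neurons, whose cell bodies lie outside this tissue, stood at 160, 276 and 200.1 CPM in Vulnerable rats. It had 160.3, 110 and 96.3 CPM in Non Vulnerable rats, and 167, 210 and 179 CPM in Saline rats. Non Vulnerable rats all lay below Saline rats, whereas Vulnerable rat 1 and Non Vulnerable rat 1 were level. The means were 212 ± 58.8 CPM in Vulnerable, 122 ± 33.8 CPM in Non Vulnerable and 185 ± 22.2 CPM in Saline rats (SD, n = 3 each). Drd2 was 1.73-fold higher in Vulnerable than in Non Vulnerable rats (95% interval 1.20 to 2.50, log2 0.80, SE 0.23, edgeR adjusted p = 0.0315). The call ended without Vulnerable rat 2 (log2 0.56, adjusted p = 0.101), Vulnerable rat 3 (0.88, adjusted p = 0.0626), Non Vulnerable rat 2 (0.72, adjusted p = 0.103) or Non Vulnerable rat 3 (0.65, adjusted p = 0.0985), and with the Saline rats kept out of the fit (0.84, adjusted p = 0.0564).

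Drd3, the D3 receptor, stood at 12.9, 23.8 and 20.03 CPM in Vulnerable rats, at 6.15, 8.69 and 7.35 CPM in Non Vulnerable rats, and at 13.3, 17.5 and 25.5 CPM in Saline rats. The Non Vulnerable rats lay below every rat of the other groups, and the Vulnerable and Saline rats covered nearly the same range. These levels rest on 278 to 1341 counts per rat, with a counting error of at most 6.0%. The means were 18.9 ± 5.53 CPM in Vulnerable, 7.40 ± 1.27 CPM in Non Vulnerable and 18.8 ± 6.19 CPM in Saline rats (SD, n = 3 each). Drd3 was 2.55-fold higher in Vulnerable than in Non Vulnerable rats (95% interval 1.64 to 3.98, log2 1.35, SE 0.28, edgeR adjusted p = 0.00927), a log2 fold change above that of 98.2% of genes tested. This call held in all 17 alternative fits, with log2 fold changes of 1.15 to 1.61. Drd3 was also the only gene of the 5 whose Vulnerable and Non Vulnerable rats did not overlap, where 21.8% of all genes had all Vulnerable rats above all Non Vulnerable rats.

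The start regions of the 2 called receptor genes are shown for reference, because both genes were higher in Vulnerable than in Non Vulnerable rats while their sequences differ in make-up. The windows run from 250 bases before to 50 after the RefSeq gene start (build GRCr8, gene strand, 5′ to 3′), and capitals mark a GC box, GGGCGG or CCGCCC on either strand.
Drd2, chr8:58605153-58605452, plus strand: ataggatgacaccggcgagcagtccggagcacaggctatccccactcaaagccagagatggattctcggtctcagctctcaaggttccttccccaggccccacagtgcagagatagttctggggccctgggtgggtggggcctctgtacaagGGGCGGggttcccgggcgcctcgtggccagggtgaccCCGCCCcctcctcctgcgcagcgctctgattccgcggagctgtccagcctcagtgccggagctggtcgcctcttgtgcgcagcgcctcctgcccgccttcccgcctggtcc
Drd3, chr11:70437744-70438043, minus strand: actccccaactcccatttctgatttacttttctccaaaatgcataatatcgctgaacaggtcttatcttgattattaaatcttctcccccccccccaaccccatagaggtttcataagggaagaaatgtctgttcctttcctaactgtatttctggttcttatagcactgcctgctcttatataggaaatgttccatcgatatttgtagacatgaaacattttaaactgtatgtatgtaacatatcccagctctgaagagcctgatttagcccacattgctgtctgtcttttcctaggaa
The Drd2 window held 67.3% G and C with 19 CpG dinucleotides, and the Drd3 window 39.3% with 2, where the median of 33469 such windows was 51.7% with 7. The Drd2 window had 2 GC boxes and the Drd3 window 0, and 33.1% of all windows had at least 1. Neither window held a TATA box (TATAAA or TTTATA, in 14.2% of windows) or the core of a cyclic AMP response element (TGACG or CGTCA, in 21.2%). These are letter matches only, and the data hold no measurement at these sites.

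Adora2a, the A2a receptor, stood at 188, 295 and 237 CPM in Vulnerable rats, at 258, 126 and 101 CPM in Non Vulnerable rats, and at 189, 230.5 and 180.2 CPM in Saline rats. Non Vulnerable rat 1 lay above all 3 Saline rats, and Non Vulnerable rats 2 and 3 lay below them. The means were 240 ± 53.4 CPM in Vulnerable, 162 ± 84.7 CPM in Non Vulnerable and 200 ± 26.9 CPM in Saline rats (SD, n = 3 each), all within that spread. The difference between Vulnerable and Non Vulnerable rats was 1.48-fold (95% interval 0.894 to 2.46, edgeR adjusted p = 0.199).

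Ppp1r1b, which encodes DARPP-32, stood at 783, 1234 and 964 CPM in Vulnerable rats, at 1028, 586 and 432 CPM in Non Vulnerable rats, and at 737, 890 and 861 CPM in Saline rats. The rats of each group took the same order as for Adora2a among Vulnerable and Non Vulnerable rats, and Non Vulnerable rat 1 was again above all Saline rats. The means were 994 ± 227 CPM in Vulnerable, 682 ± 309 CPM in Non Vulnerable and 829 ± 81.1 CPM in Saline rats (SD, n = 3 each). The difference between Vulnerable and Non Vulnerable rats was 1.46-fold (95% interval 0.917 to 2.31, edgeR adjusted p = 0.182). Over the 5 genes the median log2 fold change between Vulnerable and Non Vulnerable rats was 0.72, beside -0.04 over all genes.

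**Figure D2:**
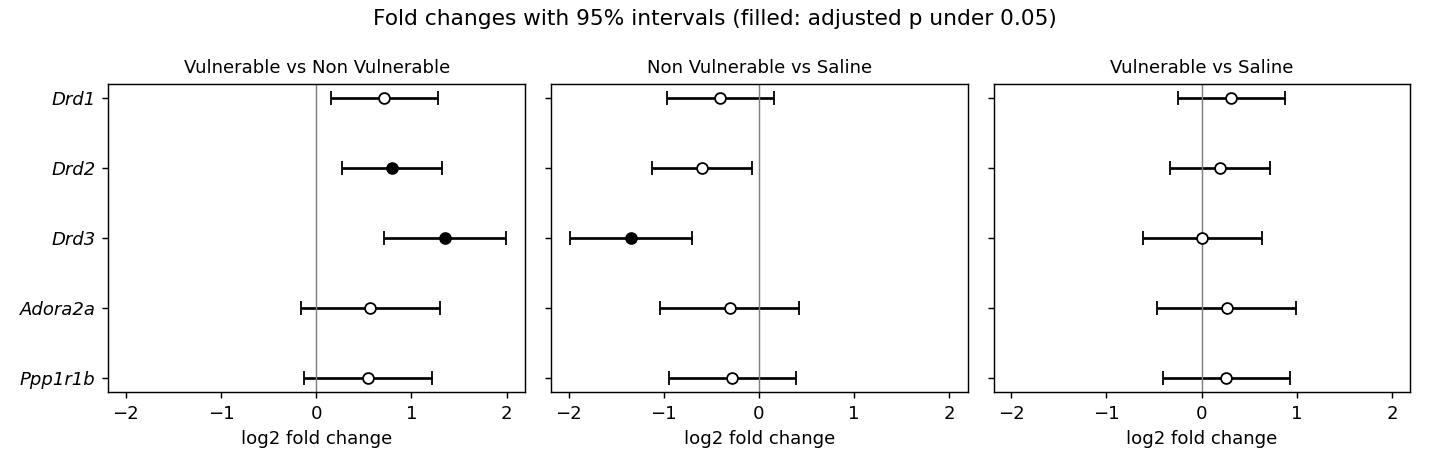
log2 fold change (horizontal axis) of each gene in 3 comparisons, with 95% intervals from edgeR; filled points have an adjusted p under 0.05. Filled are Drd2 (0.80) and Drd3 (1.35) for Vulnerable against Non Vulnerable rats and Drd3 (-1.34) for Non Vulnerable against Saline rats, and all 5 intervals for Vulnerable against Saline rats include 0.

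Between Non Vulnerable and Saline rats 1 of the 5 genes, Drd3, was called, and Drd2 had an unadjusted p of 0.0301. Drd3 fell to 0.394 of the Saline level in Non Vulnerable rats (95% interval 0.252 to 0.616, log2 -1.34, SE 0.28, edgeR adjusted p = 0.0193), and 0.699% of genes tested had a lower log2 fold change. That is 1 of 5 genes called, where 14.7% of all genes were called and 7.86% were called lower. The Drd3 call ended without Non Vulnerable rat 2 (log2 -1.48, adjusted p = 0.0546), Non Vulnerable rat 3 (-1.34, adjusted p = 0.0617) or Saline rat 2 (-1.39, adjusted p = 0.0684), with folds about as large. Drd2 and Drd3 were the genes with all Non Vulnerable rats below all Saline rats, 2 of 5, where 17.5% of all genes were so.

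The other 4 genes had log2 fold changes of -0.28 to -0.60 between Non Vulnerable and Saline rats, none of them called. For Drd2 the level in Non Vulnerable rats was 0.660 of that in Saline rats (95% interval 0.458 to 0.951, edgeR adjusted p = 0.112). For Drd1 it was 0.755 (95% interval 0.511 to 1.11, adjusted p = 0.290), for Adora2a 0.809 (0.488 to 1.34, adjusted p = 0.547) and for Ppp1r1b 0.822 (0.518 to 1.30, adjusted p = 0.544). The intervals of Drd1, Adora2a and Ppp1r1b included both no difference and a level near 0.5 of that in Saline rats, and that of Drd2 ended just below 1. This comparison and that with Vulnerable rats share the Non Vulnerable rats.

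No test of these genes passed between Vulnerable and Saline rats. All 5 fold changes were positive, from 1.01 for Drd3 to 1.24 for Drd1. With edgeR 0 of 5 genes were called and 0 had an unadjusted p under 0.05, and limma voom and DESeq2 also called 0 of 5. Over all genes edgeR called 0%, limma voom 0 and DESeq2 30 genes, with 807 genes at an unadjusted p under 0.05 in edgeR. The intervals were wide, 0.840 to 1.83 for Drd1, 0.796 to 1.65 for Drd2, 0.653 to 1.55 for Drd3, 0.724 to 1.99 for Adora2a and 0.755 to 1.90 for Ppp1r1b. Each of these intervals includes 1, and differences up to their ends were not excluded.

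The mean of both cocaine groups likewise gave 0 of 5 genes called against Saline rats in edgeR, limma voom and DESeq2. Of the 5, only Drd3 had an unadjusted p under 0.05 in edgeR, with a log2 difference of -0.67 (SE 0.24, adjusted p = 0.556). Over all genes edgeR called 0%, with 1391 at an unadjusted p under 0.05, limma voom called 0 and DESeq2 117. The groups that make up this mean lay on opposite sides of the Saline mean for Drd1, Drd2, Adora2a and Ppp1r1b, so the log2 differences of these 4, from -0.20 to -0.01, average unlike values.

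In 5 of the 6 cocaine rats all 5 genes lay on 1 side of the Saline mean, and in Non Vulnerable rat 1 they did not. Relative to the Saline mean of log2 CPM, the 5 genes of Vulnerable rat 2 lay between 0.39 and 0.62, those of Vulnerable rat 3 between 0.12 and 0.29, and those of Vulnerable rat 1 between -0.49 and -0.03. Non Vulnerable rat 2 lay between -1.06 and -0.35, and Non Vulnerable rat 3 between -1.30 and -0.93, so in both rats all 5 genes were below the Saline mean. In Non Vulnerable rat 1, Adora2a (0.38) and Ppp1r1b (0.31) were above the Saline mean, Drd1 (-0.0066) was at it, Drd2 (-0.20) was slightly below it and Drd3 (-1.55) was lower than in any other rat.

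**Figure D3:**
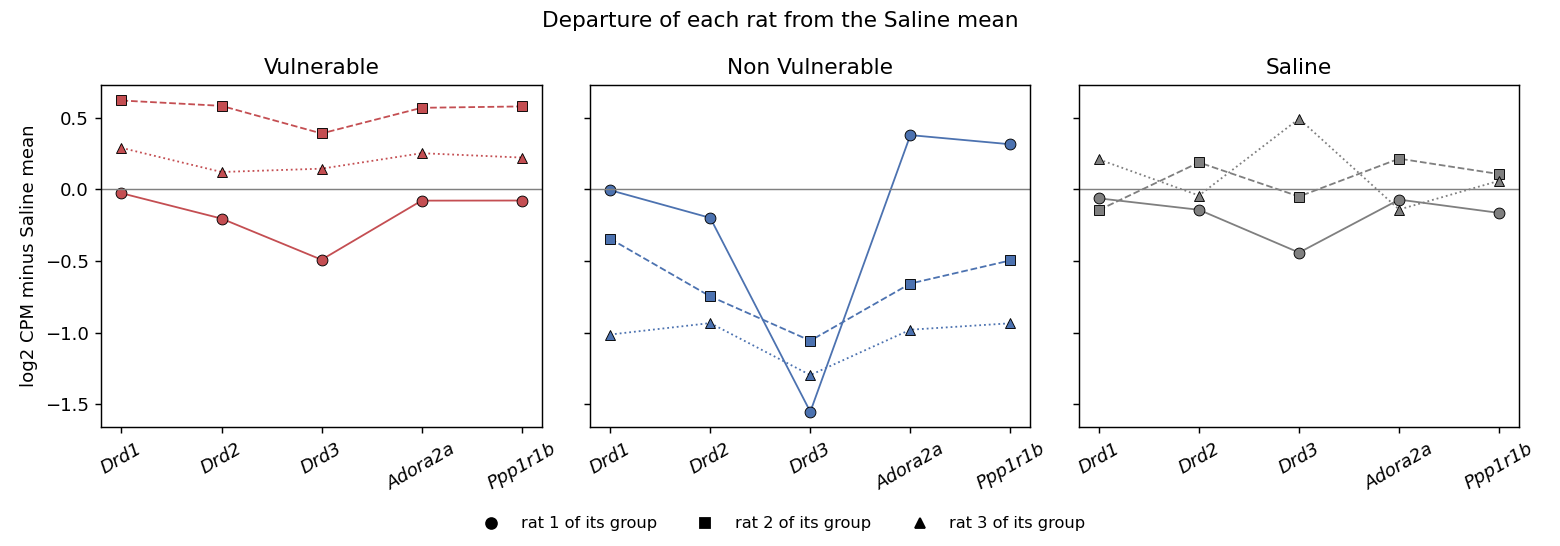
log2 CPM minus the mean of the 3 Saline rats (vertical axis) for each gene, 1 line per rat. The lines of Vulnerable rats 2 and 3 and of Non Vulnerable rat 3 are the flattest among the cocaine rats, all lines of Non Vulnerable rats are lowest at Drd3, and that of Non Vulnerable rat 1 spans from -1.55 at Drd3 to 0.38 at Adora2a.

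Leaving out Non Vulnerable rat 1 raised the number of genes called most, and leaving out some other rats lowered it. Between Vulnerable and Non Vulnerable rats it fell to as few as 1, and between Non Vulnerable and Saline rats to 0. Of the Non Vulnerable rats, rat 1 had the highest levels of Drd1, Drd2, Adora2a and Ppp1r1b. Wider differences in these genes without Non Vulnerable rat 1 therefore follow from its levels. Without it, all 5 genes were called higher in Vulnerable rats when set against Non Vulnerable rats, with log2 fold changes of 0.98 for Drd1, 1.06 for Drd2, 1.25 for Drd3, 1.10 for Adora2a and 0.98 for Ppp1r1b, and edgeR adjusted p of 0.00546 (Adora2a) to 0.0205 (Drd3). Without it, 5841 of 16218 genes tested were called in that comparison, 2834 of them higher in Vulnerable rats. Against Saline rats, 4 of the 5 genes were then called, Drd2 (log2 -0.86, adjusted p = 0.0269), Adora2a (-0.84, adjusted p = 0.0233) and Ppp1r1b (-0.72, adjusted p = 0.0441) beside Drd3, while Drd1 had an adjusted p of 0.0817. Over all genes 3615 of 16218 were called in that fit, 1713 of them lower in Non Vulnerable rats, against 2351 of 16029 with all rats. This rat is the one whose 10 most counted genes took 18.2% of its counts. Another edgeR fit kept all rats and left out the 10 genes with the highest mean share of counts over the 9 rats. These need not be the 10 most counted genes of Non Vulnerable rat 1, so this fit does not test its composition. Between Vulnerable and Non Vulnerable rats, Adora2a then had a log2 fold change of 0.61 (adjusted p = 0.184) and Ppp1r1b of 0.58 (adjusted p = 0.167). Drd2 and Drd3 were again called. Nothing in the labels sets Non Vulnerable rat 1 apart from the other Non Vulnerable rats.

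**Figure D4:**
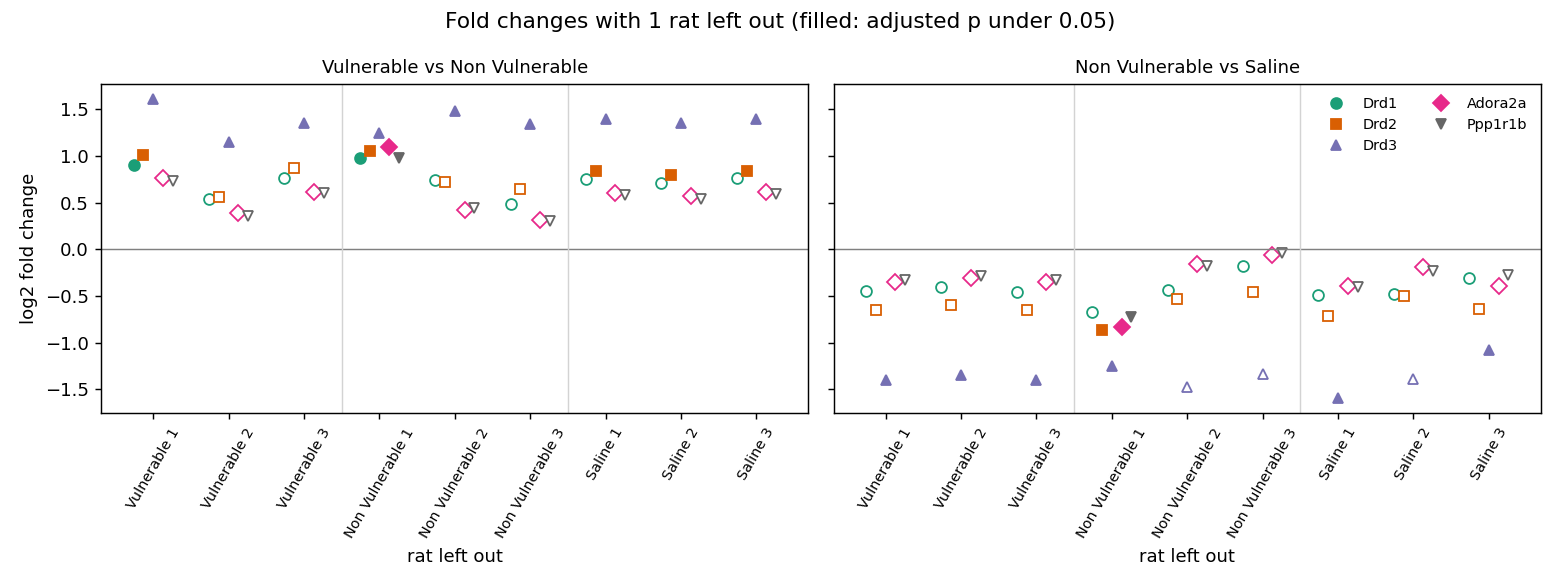
log2 fold change (vertical axis) of each gene with 1 of the 9 rats left out (horizontal axis), for Vulnerable against Non Vulnerable and Non Vulnerable against Saline rats; filled points have an edgeR adjusted p under 0.05. Drd3 stays filled in all 9 fits against Vulnerable rats, and leaving out Non Vulnerable rat 1 fills 5 points on the left and 4 on the right.

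The balance of direct and indirect pathway transcripts had group means closer together than the spread of rats. It was measured in each library sum as log2 of the Drd1 count minus the mean of log2 of the Drd2 and Adora2a counts, which needs no scaling between rats. The balance was -0.24, -0.31 and -0.25 in Vulnerable rats 1 to 3, -0.45, 0.0051 and -0.41 in Non Vulnerable rats, and -0.31, -0.70 and -0.05 in Saline rats. The Vulnerable rats lay inside the range of both other groups, and no group stood apart. The means were -0.27 ± 0.04 in Vulnerable, -0.28 ± 0.25 in Non Vulnerable and -0.35 ± 0.33 in Saline rats (SD, n = 3 each). An exact permutation test over the 3 groups gave p = 0.907, where the smallest p possible is 0.00357.

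Taken in pairs, the balance of Vulnerable minus Non Vulnerable rats was 0.02 (exact permutation p = 1), that of Non Vulnerable minus Saline rats 0.07 (exact p = 0.9) and that of Vulnerable minus Saline rats 0.09 (exact p = 0.8). All 3 adjusted p were 1 over the 3 comparisons, two-sided, and 3 rats against 3 cannot go below p = 0.1. The within-group SD of the balance was 0.24 on the log2 scale. The 2 rats at the ends were Non Vulnerable rat 2, with a Drd1 count 1.08 times its Drd2 count, and Saline rat 2, where it was 0.647 times.

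**Figure D5:**
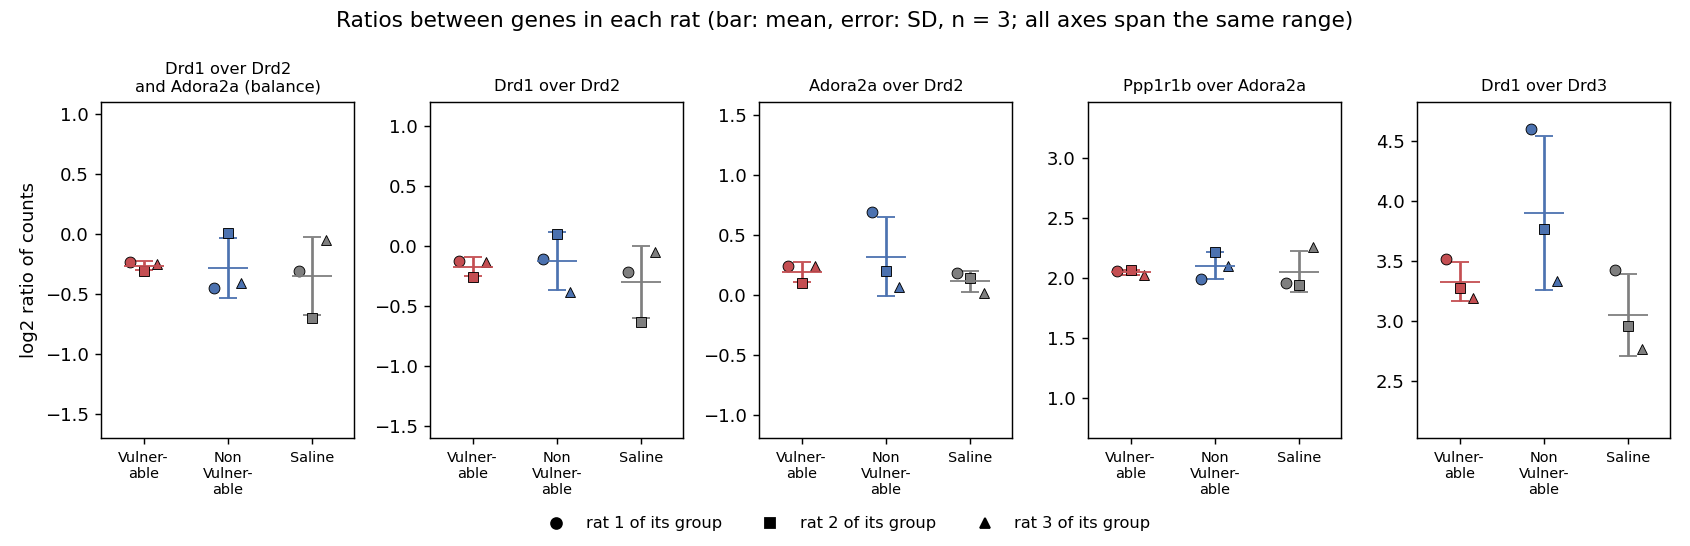
log2 ratios of counts between genes (vertical axes, all of the same span) in each rat; points are rats, bars are means and error bars SD (n = 3). Ppp1r1b over Adora2a differs least between rats, and Non Vulnerable rat 1 is highest for Adora2a over Drd2 (0.69) and for Drd1 over Drd3 (4.60).

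Ppp1r1b and Adora2a had the steadiest ratio of the 10 pairs. Over all 9 rats Ppp1r1b had 3.86 to 4.78 times the counts of Adora2a, with a within-group SD of 0.12 for the log2 ratio, against 0.42 for log2 CPM of Ppp1r1b and 0.46 for that of Adora2a. The Drd1 count was 0.774 to 0.782 times the Adora2a count in Vulnerable rats, 0.578 to 0.936 times in Non Vulnerable rats and 0.588 to 0.961 times in Saline rats, with a within-group SD of 0.29 for the log2 ratio. Ratios with Drd3 were the loosest, with within-group SD of 0.43 to 0.62. The ratio of the 2 indirect pathway receptors, Adora2a over Drd2, was 1.61 in Non Vulnerable rat 1 and 1.01 to 1.18 in the other 8 rats.

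No ratio between a pair of the genes passed a test of difference among the groups. Of the 10 pairs, 0 passed an exact permutation test over the 3 groups after Benjamini-Hochberg adjustment over the pairs, and 0 had an unadjusted p under 0.05. The smallest p belonged to Drd3 over Ppp1r1b (exact p = 0.0571, adjusted p = 0.446) and Drd1 over Drd3 (exact p = 0.0893, adjusted p = 0.446). Drd1 over Drd3 was 9.14 to 11.4 in Vulnerable rats, 10.1 to 24.2 in Non Vulnerable rats and 6.79 to 10.8 in Saline rats. So the call for Drd3 beside none for Drd1, Adora2a or Ppp1r1b between the same groups is not by itself a difference between these genes.

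All 5 genes varied more between rats of a group than the typical gene. The biological coefficient of variation estimated by edgeR was 21.4% for Drd1, 20.2% for Drd2, 24.2% for Drd3, 27.4% for Adora2a and 25.1% for Ppp1r1b, where the median over all genes tested was 13.8%. It was larger than that of 68.6% (Drd2) to 84% (Adora2a) of genes. At the median over the rats, the spread between the 4 libraries of a rat was far smaller. Its median coefficient of variation was 0.956% for Ppp1r1b, 1.45% for Adora2a, 2.06% for Drd2, 2.33% for Drd1 and 6.66% for Drd3. For Drd3 in the Non Vulnerable rats it was 12.5% to 16.2%, beside 17.2% between those 3 rats. Any error that the 4 libraries of a rat share, such as that of dissection, is not in these values. Such an error enters the spread between rats and can also enter the differences between groups, which was not tested. Adora2a and Ppp1r1b spread most in Non Vulnerable rats, with coefficients of variation of 52.4% and 45.3% there, against 13.4% and 9.77% in Saline rats.

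Likeness of profile was measured as Pearson's r of log2 CPM over the 9 rats, among genes with a mean of at least 1 CPM, as a description of rats that share libraries, scaling and group differences. Adora2a and Ppp1r1b were closest to each other (r = 0.979), each among the 15 genes most like the other out of 13726. Drd2 had r of 0.922 with Ppp1r1b, 0.918 with Adora2a and 0.894 with Drd1, and Drd3 had r of 0.477 with Adora2a to 0.763 with Drd2. The gene most like both Adora2a (r = 0.990) and Ppp1r1b (r = 0.994) was ENSRNOG00000005284, with 76.7 ± 14.1 CPM in Vulnerable, 56.6 ± 23.6 CPM in Non Vulnerable and 68.4 ± 5.28 CPM in Saline rats (SD, n = 3 each). The gene most like Drd1 was ENSRNOG00000016962 (r = 0.992), with 21.6 ± 6.77, 11.8 ± 5.05 and 16.5 ± 3.36 CPM in Vulnerable, Non Vulnerable and Saline rats (SD, n = 3 each). Their IDs could not be paired with symbols. Drd2 ranked 299 among the genes most like Drd1, and Drd1 ranked 544 among those most like Drd2.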

How the data were processed

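Each of 36 libraries had 1 table of raw counts by Ensembl gene, whole numbers as the authors deposited them, with no normalization. Libraries were strand-specific and polyA-selected, per the labels' protocols. STAR, HTSeq 0.5.3 and bcl2fastq 2.17.1.14 are listed in the submitters' processing notes. No source used here gives the genome build, annotation or strand setting, and overlapping or antisense genes may share reads. Counts were added up over the 4 technical replicates, making each rat 1 sample. Numbered rats were taken as separate animals.

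Counts of all 16029 genes kept by filterByExpr were fitted with edgeR 4.0.16 in R 4.3.3 (TMM scaling, glmQLFit robust, 1 coefficient per group, 9 rats, 6 residual degrees of freedom) and adjusted by Benjamini-Hochberg over all of them. The fit was also run on simulated counts. There far fewer genes were changed than were called here, and only in Vulnerable rats, so that run does not cover these data. SE came from the F statistic. A prior count of 2 entered the log2 CPM. Ratios used exact two-sided permutation tests (SciPy 1.17.1). Alternatives were DESeq2 1.42.0, limma 3.58.1 voom, other scalings, no filter, only the compared groups, a block for the rat number, and each rat left out in turn. The genes, lists and tests were chosen with earlier results of these data known. Named were the 5 genes and, of the 2 genes most like each, the ID ranked first for Drd1 and that ranked first for both Adora2a and Ppp1r1b. The RefSeq table (GRCr8) paired 0 IDs with symbols, so 13 lists of signalling genes and cell type markers were void.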

Additional observations from a re-analysis of the deposited data

Results flagged for a closer look

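The departure from the shared Saline rats differed between Vulnerable and Non Vulnerable rats for Drd2, by 0.80 on the log2 scale, and for Drd3, by 1.35 (edgeR adjusted p = 0.0315 and 0.00927). The Saline level cancels in this difference, so it equals the fold change between these groups in the report and is not a separate result.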

How the results depend on the processing

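Against Non Vulnerable rats, the 2 genes called in Vulnerable rats became 1 when Saline rats were kept out of the fit and 1 to 5 with a rat left out. Over all genes, 5050 of 16029 were called there with all rats and 3942 of 15740 with the Saline rats kept out. Without Non Vulnerable rat 1, where all 5 were called, it was 5841 of 16218. Where 1 of the 5 was called with a rat left out, 2798 to 3050 genes were called over all genes. Against Saline rats, the 1 gene called in Non Vulnerable rats became 2 with library totals in place of TMM scaling and 0 to 4 with a rat left out. Calls over all genes moved too: for Non Vulnerable against Saline rats they were 2351 with all rats, 3615 without Non Vulnerable rat 1, where 4 of the genes were called, and, in the fits where 0 were, 251 (Saline rat 2 left out), 490 (Non Vulnerable rat 2 left out) and 905 (Non Vulnerable rat 3 left out). Library totals shifted the split of higher and lower calls to 117 and 1857, against 1091 and 1260 with TMM scaling, and for Vulnerable against Non Vulnerable rats to 3282 and 896, against 2419 and 2631. For both comparisons with Saline that include Vulnerable rats, the count of 0 of the 5 genes called held in all alternatives. Over all genes, Vulnerable against Saline rats had 30 genes called in DESeq2 and 1 with library totals in edgeR. The mean of both cocaine groups had 117 in DESeq2. Of 155 fold changes refitted in the alternatives other than leaving 1 rat out, 151 kept direction and side of the threshold, 3 gained a call and 0 turned round. The 1 lost call was that of Drd2 between Vulnerable and Non Vulnerable rats, with the Saline rats kept out of the fit. With a rat left out, uncalled fold changes near 0 turned round: against Saline, Vulnerable rats ranged from -0.039 to 0.36 (Drd2) and -0.19 to 0.32 (Drd3), and the mean of both cocaine groups from -0.18 to 0.071 (Drd1), -0.29 to 0.10 (Adora2a) and -0.23 to 0.11 (Ppp1r1b). The balance also had no settled sign. Vulnerable minus Non Vulnerable rats gave -0.0083 with technical replicate c alone, -0.044 with Drd2 alone and -0.063 to 0.16 with a rat left out. Non Vulnerable minus Saline rats gave -0.035 with Adora2a alone and -0.10 to 0.22 with a rat left out, and Vulnerable minus Saline rats -0.085 to 0.24. The causes were not tested. The rat number as a replicate block changed no call. It left 2, 1 and 0 genes called (Vulnerable against Non Vulnerable, Non Vulnerable against Saline, Vulnerable against Saline). Same-numbered rats deviated together at r above 0.1 in 2 of 9 pairs (-0.14 to 0.19), and pairs of different number ranged from -0.24 to 0.19. Whether same-numbered rats shared a processing step was not tested. The precision is limited by 3 rats a group, and the part that depth has in it was not tested.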

Other observations

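For counts of the 5 genes in the 4 technical replicates of a rat, the chi-square p (3 degrees of freedom) was under 0.05 in 3 of 45 combinations. That is close to the share that sampling noise alone gives at this threshold. The largest departure was Drd3 in Vulnerable rat 3, with a chi-square per degree of freedom of 4.17 and a coefficient of variation of 11.1% between its 4 libraries.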
